A study of Mus musculus with 18 samples.

Results

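T cell receptor gene segments are the variable (V), joining (J) and constant (C) pieces from which the antigen receptor genes of T cells are built. They were taken here as every transcript cluster on the array (a set of probes designed against 1 locus) whose only gene symbol is that of a segment of the alpha, beta, gamma or delta chain. This gave 133 of the 27030 genes measured, each with 1 cluster. They comprised 85 V and 18 J segments of the alpha chain, 21 V segments of the beta chain, 5 V segments of the delta chain, and 3 V segments and 1 J segment of the gamma chain. No constant segment met the rule. The alpha and delta members carry chromosome 14 in their cluster identifiers, the beta members chromosome 6 and the gamma members chromosome 13, as these loci do in the mouse genome.

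The tissues were mammary glands of female C57Bl/6 mice in 3 groups of 6 arrays. M/D-driven tumors arose in mice implanted, at an age of 6 to 9 weeks, with a 90-day release pellet of 50 mg of the synthetic progestin medroxyprogesterone acetate (MPA) and given 6 gavages of 200 µL of the carcinogen 7,12-dimethylbenz[a]anthracene (DMBA) at 5 mg/mL; they were collected at 0.7 to 1 cm2. Hyperplastic glands came from mice that had received the same pellet and gavages and had not developed a tumor, and normal glands from M/D-naïve mice, whose age is not given separately. The mouse behind each array is not named in the labels, whether the lymph node of a gland was removed is not stated, and no batch is recorded, so that p-values reflect only how these arrays vary. All values are log2 intensities after robust multi-array averaging (RMA), and each array is called by its group and number (normal 1, tumor 5).

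A T cell receptor gene works only after recombination. In a developing T cell, 1 V segment is cut and joined to 1 J segment (with a D segment in between in the beta and delta chains), and the joined unit is spliced to the constant segment. The alpha chain pairs with the beta chain in most T cells, and the gamma chain with the delta chain in a smaller lineage that settles in skin, gut and other surface tissues. The alpha locus of the mouse holds long duplicated blocks, so that many V alpha segments exist as near-identical copies (the d and n copies), and the delta segments lie inside the alpha locus. Each T cell uses 1 or a few segments of a locus, so a tissue shows a segment's signal according to how many of its T cells chose that segment and how much receptor RNA they hold. In tissue samples such as these, fewer T cells and less receptor RNA per cell cannot be told apart.

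Near-identical copies can share probes or bind each other's RNA. Values of 6 members were identical on all arrays in 3 pairs (Trav14d-2 with Trav14n-2, Trav5d-3 with Trav5n-3, and Trav7d-5 with Trav7n-5), which left 130 distinct profiles. Members of an alpha family are therefore not separate observations, and the signal of a copy may hold that of its relatives. A probe that lies in a germline segment also binds unrearranged transcripts where these are made.

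A detection level was set at 5.36 log2 units, the 95th percentile of the means of 1078 genes of the olfactory receptor family, whose site of expression is the nose. Of the 133 segments, 79 had a mean over all arrays above that level and 54 lay at or below it. Near this level RMA compresses differences, so the log2 changes of dim segments are low estimates, and levels of different segments are not comparable because their probes differ. Where a segment is given as that of the highest mean of its class, this says only by which rule it was chosen.

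Most alpha and beta segments were called lower in M/D-driven tumors than in either non-tumor group: 70 of 103 alpha and 13 of 21 beta segments against normal glands, and 61 of 103 and 12 of 21 against hyperplastic glands. Against normal glands 87 of 133 segments fell (65.4%, limma, adjusted p under 0.05), none rose and 46 were not called, beside 12.7% of all genes called lower and 19.5% called higher. The median log2 change of the segments was -0.39, and that of all genes 0.04. In 75 segments every tumor lay below every normal gland, which was so for 7% of all genes. A fall beyond 1 log2 unit was called in 18 segments (2.76% of all genes) and beyond 2 log2 units in 7 (0.803% of all genes).

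Against hyperplastic glands, 74 segments fell (55.6%), none rose and 59 were not called, beside 8.57% of all genes called lower and 11.9% higher. Here the median log2 change was -0.38 for the segments. In 39 segments every tumor lay below every hyperplastic gland (4.05% of all genes). A fall beyond 1 log2 unit was called in 17 (2.19% of all genes) and beyond 2 log2 units in 7 (0.522% of all genes). Both comparisons use the same tumor arrays and are therefore not independent. Called lower in both were 69 segments, which is 79.3% of the list against normal and 93.2% of the list against hyperplastic glands. A further 18 were called only against normal and 5 only against hyperplastic glands, and 41 in neither.

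The number of calls depended on how the arrays were scaled. Probe sets that the annotation marks as negative controls were themselves called lower in 14.2% of cases at the p limit of the genes in tumor against normal, and in 4.88% in tumor against hyperplastic glands. With each array centred on their median, 45 segments fell against normal (5.58% of all genes) and 35 against hyperplastic glands (4.31% of all genes), and none rose. This centring also changed the share of higher calls among all genes called from 60.6% to 81.9% against normal and from 58.2% to 71.3% against hyperplastic glands. Centring on reference genes moved that share to 38% and 50.9%, with 102 and 72 segments called lower (18.3% and 8.55% of all genes) and again none higher.

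**Figure D1:**
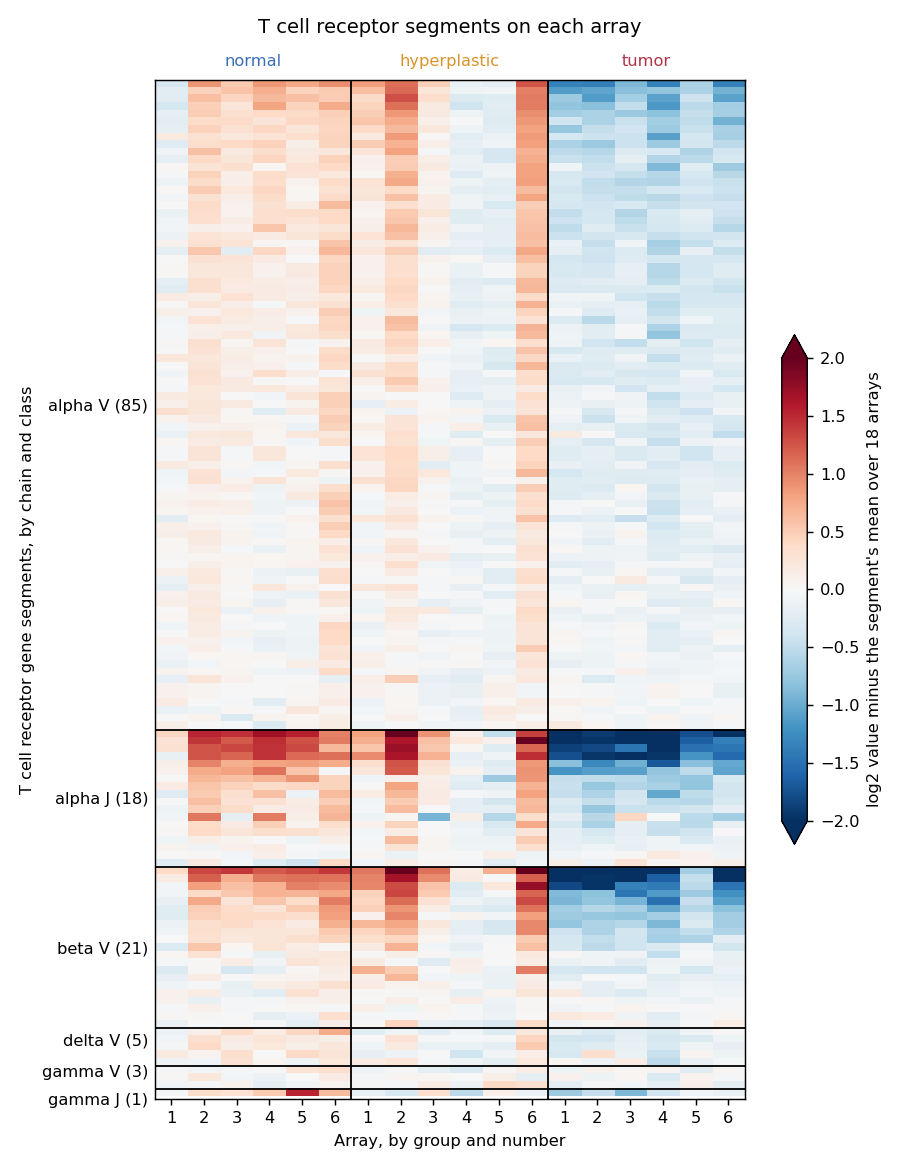
Log2 value of each of the 133 segments (rows, by chain and class, ordered within a class by the change from normal to tumor) on each of the 18 arrays (columns), minus the segment's mean over all arrays; the color scale ends at 2 log2 units on either side. The tumor columns are blue in most alpha and beta rows, the normal and hyperplastic columns red, with paler columns for normal 1 and hyperplastic 4 and 5; the gamma V rows are near white throughout.

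The beta V segments encode the variable part of the beta chain. Of these, 13 of 21 fell in tumors against normal (median log2 change -0.45, 12.7% of all genes called lower). Against hyperplastic glands 12 of 21 fell (median -0.66, 8.57% of all genes). Trbv20 had the largest log2 change of all 133 segments in both comparisons. In normal glands it ran from 7.08 to 8.10 with a median of 7.99, in hyperplastic glands from 6.83 to 8.99 with a median of 7.77, and in tumors from 3.57 to 5.99 with a median of 3.90. No tumor reached the lowest non-tumor gland, but tumor 5 stood far above the other tumors, of which the next reached 4.42. The difference was -3.61 ± 0.40 (SE, n = 6 and 6, adjusted p = 2.69e-06) against normal and -3.69 ± 0.40 (adjusted p = 6.55e-06) against hyperplastic glands. The tumor mean, 4.25 ± 0.91 (SD, n = 6), lay below the detection level, so the size of the change is bounded by the array's background.

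Trbv13-2 behaved alike. Its normal glands ran from 6.38 to 7.40 (median 7.28), its hyperplastic glands from 6.22 to 7.87 (median 7.18) and its tumors from 4.06 to 5.74 (median 4.22). Again all tumors lay below all other glands and tumor 5 was the highest tumor. The log2 difference was -2.60 ± 0.30 (SE) against normal (adjusted p = 4.13e-06) and -2.54 ± 0.30 against hyperplastic glands (adjusted p = 1.51e-05).

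The neighboring members of the same family gave smaller changes. For Trbv13-3 the log2 difference from normal was -1.54 ± 0.23 (SE, adjusted p = 5.38e-05), with tumors from 4.20 to 4.92 and normal glands from 5.59 to 6.41. Trbv13-1 differed by -0.93 ± 0.20 (adjusted p = 0.00134). Differences between these family members were not tested, and all 3 had tumor means below the detection level.

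Trbv19 ran from 6.38 to 7.44 in normal glands (median 7.19), from 6.16 to 8.19 in hyperplastic glands (median 7.20) and from 4.47 to 5.91 in tumors (median 4.98). The tumors did not overlap with either group, and tumor 5 was once more the highest of them. Its log2 difference was -2.09 ± 0.30 (SE) against normal (adjusted p = 3.59e-05) and -2.18 ± 0.30 against hyperplastic glands (adjusted p = 6.54e-05).

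Other beta segments kept a tumor mean above the detection level, and a fold change is given for them. That level does not measure the background of a segment's own probes, so these folds may be low estimates too. Trbv31, a segment that lies beyond the constant genes and recombines by inversion, was 2.67-fold lower in tumors than in normal glands (log2 -1.42, 95% confidence interval -1.95 to -0.88, adjusted p = 0.000288). Trbv2 was 2.14-fold lower (adjusted p = 0.000721). For Trbv1, the beta V segment with the highest mean, normal glands ran from 6.92 to 7.53 (median 7.25), hyperplastic glands from 6.68 to 7.96 (median 7.28) and tumors from 6.36 to 6.63 (median 6.46). The tumors lay close together and below all other glands. The fold was 1.72 against normal (log2 -0.78 ± 0.17 SE, adjusted p = 0.00178) and 1.74 against hyperplastic glands (log2 -0.80 ± 0.17, adjusted p = 0.00294).

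The 8 beta segments not called against normal were Trbv10, Trbv12-1, Trbv15, Trbv16, Trbv23, Trbv26, Trbv29 and Trbv30. Trbv23 differed by 0.01 log2 units (95% confidence interval -0.16 to 0.17) and Trbv12-1 by 0.05 (-0.18 to 0.28), and both were below the detection level in every group. Trbv29 was the exception among them, since it was called lower in tumors against hyperplastic glands (log2 -0.66 ± 0.16 SE, adjusted p = 0.00661) and not against normal (-0.18 ± 0.16, adjusted p = 0.427). The call was lost with centring on the negative controls (adjusted p = 0.0525).

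The 18 alpha J segments supply the joint between the variable and constant parts of the alpha chain. Of these, 13 fell against normal (median log2 change -0.78, 12.7% of all genes called lower) and 14 against hyperplastic glands (median -0.57, 8.57% of all genes). In each of the 13, tumors and normal glands did not overlap, beside 7% of all genes that were lower without overlap. As the 13 were picked by their calls, this count is no separate result. The segments measured lie from Traj61, at the V end of the J cluster, to Traj1, next to the constant segment.

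Traj36 ran from 6.03 to 7.29 in normal glands (median 7.10), from 5.11 to 7.59 in hyperplastic glands (median 6.45) and from 3.28 to 3.84 in tumors (median 3.50). The 6 tumors formed a narrow band well below the detection level, and hyperplastic 5 was the only other array below it. The log2 difference was -3.34 ± 0.32 (SE) against normal (adjusted p = 5.62e-07, the smallest of the 133 segments in this comparison) and -2.84 ± 0.32 against hyperplastic glands (adjusted p = 8.62e-06).

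Traj35, its neighbor in the cluster, ran from 7.03 to 8.22 in normal glands (median 8.0), from 6.83 to 8.74 in hyperplastic glands (median 7.40) and from 4.34 to 5.38 in tumors (median 4.66). Tumors were separate from both groups, and tumor 6 was the highest of them. Its differences were -3.11 ± 0.30 (SE, adjusted p = 7.54e-07) and -2.86 ± 0.30 (adjusted p = 4.99e-06) log2 units against normal and hyperplastic glands.

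Traj2 fell from a normal median of 8.24 (range 7.26 to 8.39) and a hyperplastic median of 7.50 (6.71 to 8.67) to a tumor median of 5.30 (4.94 to 5.50). Traj47 fell from a normal median of 7.04 (5.74 to 7.33) and a hyperplastic median of 6.71 (5.72 to 7.52) to a tumor median of 4.04 (3.85 to 4.71). In both, all tumors lay below all other arrays, and normal 1 was the lowest normal gland. Their log2 differences were -2.73 against normal (SE 0.28 for Traj2 with adjusted p = 9.68e-07, SE 0.31 for Traj47 with adjusted p = 3.56e-06). Against hyperplastic glands they were -2.31 ± 0.28 (adjusted p = 1.59e-05) and -2.48 ± 0.31 (adjusted p = 2.57e-05).

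Traj38 stayed above the detection level on all arrays. It ran from 8.65 to 9.52 in normal glands (median 9.30), from 8.28 to 9.78 in hyperplastic glands (median 8.85) and from 6.84 to 7.69 in tumors (median 7.54). The groups did not overlap with the tumors, which were lowest in tumor 4. Traj38 was 3.51-fold lower than in normal glands (log2 -1.81 ± 0.23 SE, adjusted p = 8.68e-06) and 2.84-fold lower than in hyperplastic glands (log2 -1.51 ± 0.23, adjusted p = 0.00014).

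Traj25, the alpha J segment with the highest mean, changed less. It ran from 9.13 to 9.72 in normal glands (median 9.42), from 8.76 to 9.76 in hyperplastic glands (median 9.17) and from 8.55 to 8.83 in tumors (median 8.71). Tumors were below all normal glands but overlapped with hyperplastic 5, the lowest of its group. The fold was 1.66 against normal (log2 -0.73 ± 0.15 SE, adjusted p = 0.000773) and 1.46 against hyperplastic glands (log2 -0.54 ± 0.15, adjusted p = 0.0127). The latter was not called with the arrays centred on the negative controls (adjusted p = 0.0831).

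Traj14 fell as well, from 7.78 ± 0.44 (SD, n = 6) in normal glands to 6.29 ± 0.25 in tumors, a fold of 2.83 (adjusted p = 6.28e-05). The 5 alpha J segments not called against normal were Traj1, Traj3, Traj54, Traj55 and Traj60. Traj1 was called lower in 7 of the alternative settings, with adjusted p from 0.0203 to 0.0495. Traj55 lay above the detection level on every array and differed by 0.13 log2 units (95% confidence interval -0.10 to 0.35), with tumors from 7.68 to 8.07 inside the normal range of 7.40 to 8.19. Traj60 was at the array's floor in all groups, with means between 2.96 and 2.99.

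**Figure D2:**
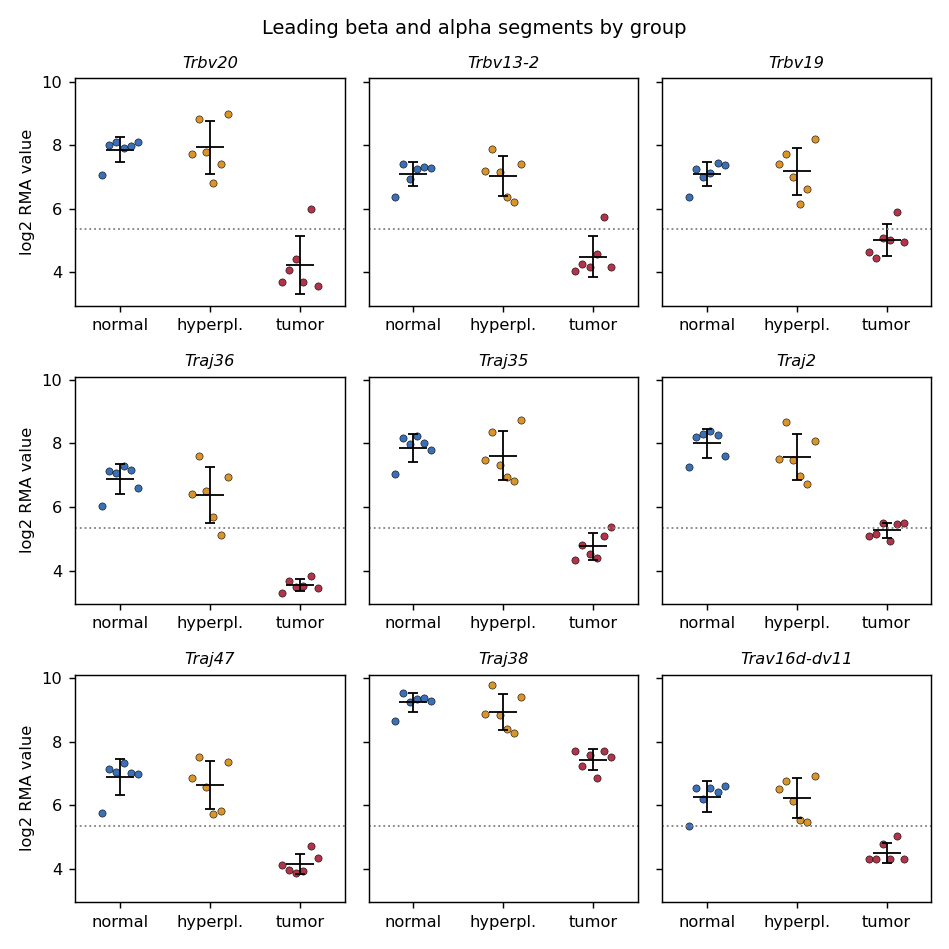
Log2 RMA value on each array (points, left to right in order of array number) of the 9 segments with the largest changes, by group. Bars are mean and SD (n = 6), and the dotted line is the detection level. The 9 were chosen among called segments without overlap in the comparison that named them, so that separation was a condition of the choice. All tumors lie below all normal and hyperplastic glands in each panel, tumor 5 is the highest tumor for Trbv20, Trbv13-2, Trbv19, Traj36, Traj47 and Trav16d-dv11, and normal 1 is the lowest normal gland throughout.

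Most of the 85 alpha V segments, which encode the variable part of the alpha chain, fell by less. Against normal 57 were called lower with a median log2 change of -0.36 (12.7% of all genes). Against hyperplastic glands 47 were, with a median of -0.37 (8.57% of all genes). The negative control probe sets themselves had medians of -0.12 and -0.07 in these comparisons. With arrays centred on them, only 45 and 35 of all 133 segments were called lower, so many of these small falls depend on the scaling. Trav16d-dv11, a segment that can join to either alpha or delta pieces, led the alpha V segments. It ran from 5.34 to 6.59 in normal glands (median 6.47), from 5.47 to 6.93 in hyperplastic glands (median 6.32) and from 4.30 to 5.03 in tumors (median 4.31). No tumor overlapped with another array, and normal 1 lay apart from the other normal glands. The log2 difference was -1.76 ± 0.26 (SE, adjusted p = 4.8e-05) against normal and -1.72 ± 0.26 (adjusted p = 0.000161) against hyperplastic glands.

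The 85 fall into 19 families by their number. In tumors against normal every measured member was called lower in 5 families, some in 8 and none in 6; a single member was measured in 5 of the 19. The Trav9 family had 10 of 10 called lower with log2 changes from -1.31 to -0.40, led by Trav9-1, which ran from 5.32 to 6.25 in normal glands and from 4.42 to 4.90 in tumors (log2 -1.31 ± 0.20 SE, adjusted p = 5.99e-05). In Trav7 the count was 10 of 11, in Trav14 6 of 6 and in Trav10 3 of 3. Trav13, with 11 members, had 5 called lower, and Trav5 had 1 of 4. Within Trav6 the changes spread from -1.27 (Trav6n-6) to -0.08. The relatives share much of their sequence, so these counts describe families and not separate genes.

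By copy, 19 of 29 segments with the d suffix, 18 of 26 with the n suffix and 20 of 30 with neither were called lower in tumors against normal. Their median log2 changes were -0.38, -0.41 and -0.32. These shares were not tested against each other.

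Trav11d and Trav11n belong to the family used by invariant natural killer T cells, and Trav1 to that used by mucosal-associated invariant T cells. Trav11d ran from 7.79 to 8.29 in normal glands (median 7.93), from 7.73 to 8.15 in hyperplastic glands (median 7.79) and from 7.66 to 7.94 in tumors (median 7.87), with all 3 groups overlapping. It differed by -0.12 log2 units between tumor and normal (95% confidence interval -0.30 to 0.06, adjusted p = 0.31) and Trav11n by -0.14 (-0.30 to 0.03, adjusted p = 0.2, called with centring on reference genes at 0.0497). Trav1 was called lower by 0.22 log2 units (adjusted p = 0.0365), but not in 8 of the alternative settings, where its adjusted p ran from 0.0561 to 0.728. Trav13n-4, the alpha V segment with the highest mean, was not called in any comparison: its log2 differences were -0.27 (95% confidence interval -0.51 to -0.03, adjusted p = 0.0814) against normal and -0.18 (-0.41 to 0.06, adjusted p = 0.323) against hyperplastic glands. The first was called with centring on reference genes and with a replicate block (adjusted p from 0.00782 to 0.0323). Such segments were well above the detection level in tumors too, with means of 7.84 for Trav11d and 8.87 for Trav13n-4.

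**Figure D3:**
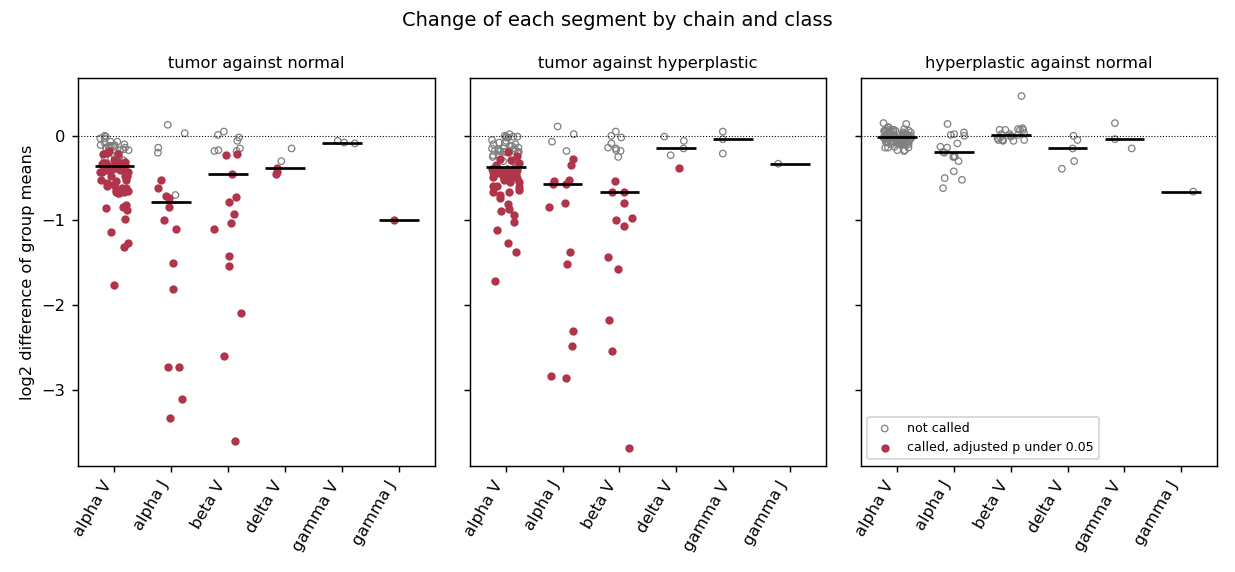
Log2 difference of group means for each of the 133 segments (points) by chain and class, for the 3 comparisons; filled points were called at an adjusted p under 0.05 and short lines are class medians. Called segments lie below 0 in both tumor comparisons, reaching -3.61 and -3.69 among the beta V segments, and none is called in hyperplastic against normal glands.

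Of the 79 segments with a mean above the detection level, 62 were called lower in tumors against normal (78.5%), beside 16.6% of all genes above that level. Of the 54 at or below it, 25 were called (46.3%), beside 6.03% of genes at or below it. The olfactory receptor genes, which set the level, were called lower in 0.649% of cases. Against hyperplastic glands the counts were 55 of 79 (69.6%) and 19 of 54 (35.2%), beside 12.2% and 2.4% of all genes on that side of the level. A segment can pass this filter through the non-tumor glands alone, as 8 of the 9 leading segments did, so the split is given as a description.

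Of the delta and gamma segments, 4 of 9 were called lower in tumors against normal (12.7% of all genes) and 1 of 9 against hyperplastic glands (8.57% of all genes). The latter count is near the share of all genes. All 5 delta V segments had log2 changes below 0 in tumors against normal, and 3 of 5 were called lower (median -0.38): Trdv2-1, Trdv2-2 and Trdv5. With the arrays centred on the negative controls none of these 3 calls held (adjusted p = 0.113, 0.232 and 0.175). Against hyperplastic glands 1 of 5 was called. Trdv2-1 was that one: its normal glands ran from 5.30 to 5.67 (median 5.52), its hyperplastic glands from 5.34 to 5.78 (median 5.35) and its tumors from 4.98 to 5.27 (median 5.05). The tumors lay just below all other arrays. The log2 difference was -0.43 ± 0.08 (SE, adjusted p = 0.000621) against normal and -0.38 ± 0.08 (adjusted p = 0.0036) against hyperplastic glands, and the latter was not called with centring on the negative controls either (adjusted p = 0.164).

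Trdv5, the delta V segment with the highest mean, was lower in tumors and showed low values in hyperplastic glands too. It ran from 5.55 to 6.40 in normal glands (median 5.92), from 5.41 to 5.89 in hyperplastic glands (median 5.51) and from 5.37 to 5.68 in tumors (median 5.48). Normal 6 was the highest array, and hyperplastic 6 stood above the rest of its group. Tumors differed from normal glands by -0.45 ± 0.12 log2 units (SE, adjusted p = 0.00616) and from hyperplastic glands by -0.06 ± 0.12 (adjusted p = 0.771).

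Trdv4, which epidermal gamma-delta T cells of the mouse use, was not called in any comparison. Its tumors ran from 4.73 to 5.51 and its normal glands from 5.18 to 5.56, with a log2 difference of -0.30 (95% confidence interval -0.55 to -0.06, adjusted p = 0.0504). Its call against normal was made in 8 of the alternative settings, with adjusted p from 0.00631 to 0.0479.

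Trgj3, the only gamma J segment, ran from 3.75 to 5.30 in normal glands (median 4.21), from 3.25 to 4.11 in hyperplastic glands (median 3.64) and from 2.88 to 3.71 in tumors (median 3.35). Every tumor lay below every normal gland, normal 5 stood highest, and hyperplastic glands overlapped with both. Tumors differed from normal by -0.99 ± 0.22 log2 units (SE, adjusted p = 0.00157) and from hyperplastic glands by -0.33 ± 0.22 (adjusted p = 0.323). All its group means lay below the detection level.

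None of the 3 gamma V segments was called. Trgv3 ran from 4.98 to 5.26 in normal glands, from 5.07 to 5.56 in hyperplastic glands and from 4.99 to 5.29 in tumors, and its log2 difference between tumor and normal was -0.06 (95% confidence interval -0.23 to 0.12). Against hyperplastic glands it was -0.21 ± 0.08 (SE, adjusted p = 0.0859), which was called in 3 of the alternative settings (adjusted p from 0.0341 to 0.0442). The intervals of the same difference were -0.27 to 0.09 for Trgv5 and -0.23 to 0.07 for Trgv7. The groups overlapped for all 3, whose means lay below the detection level, and changes inside these intervals were not detectable on these arrays. Whether the chains differed in their response was not tested.

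**Figure D4:**
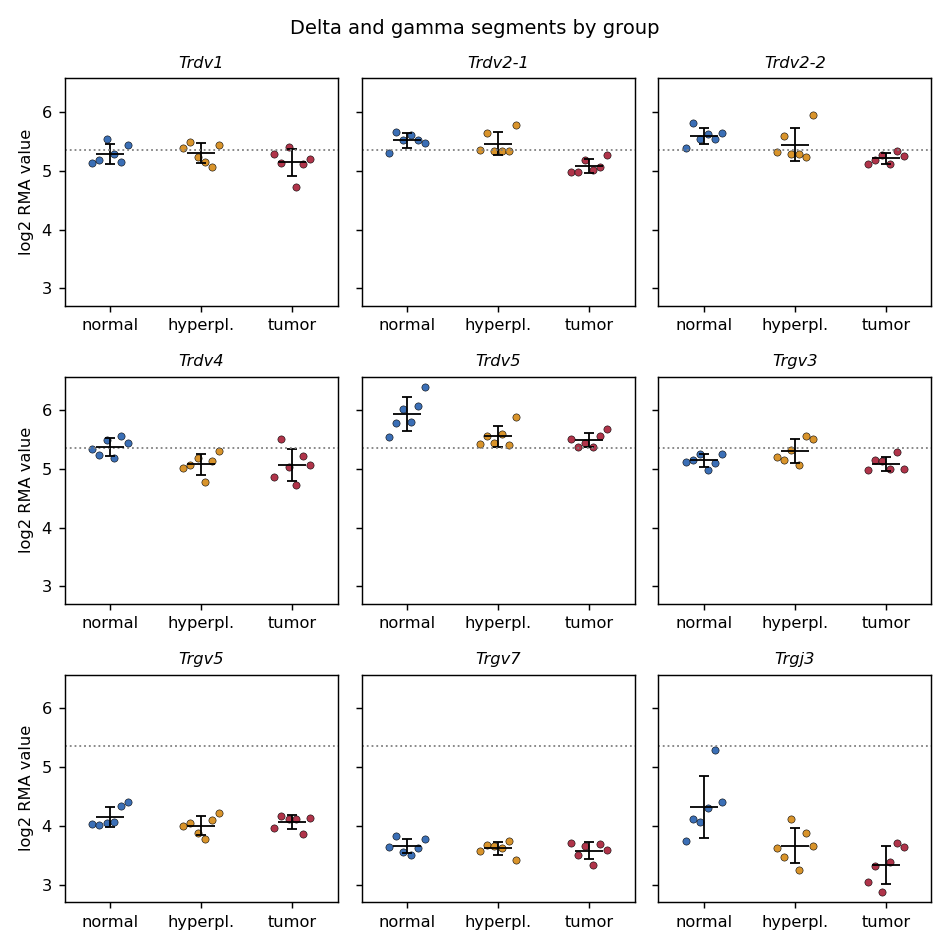
Log2 RMA value on each array (points, left to right in order of array number) of the 5 delta V, 3 gamma V and 1 gamma J segments by group, with mean and SD (bars, n = 6); the dotted line is the detection level. Most points lie near or below that line; tumors lie below all normal glands only for Trdv2-1, Trdv2-2 and Trgj3.

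Hyperplastic glands were close to normal glands. No segment was called in either direction (limma, 0 of 133), beside 0.655% of all genes called lower and 1.01% called higher, and the fit with a variance trend and robust prior also called 0. At an unadjusted p under 0.05 there were 7 of 133, of which 6 were lower and 1 higher, beside 13.6% of all genes in either direction. The median log2 change was -0.03. In 129 of 133 segments the 95% confidence interval of the change lay wholly above -1. That was also so for 99 of 133 in tumors against normal, where 87 were called lower. Dim segments can hardly show such a change, so this count does not set the comparisons apart.

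The lowest adjusted p was that of Trdv5, at 0.106, with a log2 difference of -0.39 ± 0.12 (SE) and 6 of 6 hyperplastic arrays below the normal mean. It was called with a replicate block and without hyperplastic 6 (adjusted p from 0.04 to 0.0474). Trgj3 differed by -0.66 ± 0.22 (95% confidence interval -1.11 to -0.21, adjusted p = 0.141) and Trdv4 by -0.30 ± 0.11 (adjusted p = 0.23), also with 6 of 6 arrays below the normal mean each. Of the alpha J segments, whose median was -0.20, Traj1 differed by -0.62 ± 0.26 (adjusted p = 0.293) and Traj61 by -0.52 ± 0.20 (adjusted p = 0.211), the latter called without hyperplastic 6 (adjusted p = 0.0342). Trbv29 was the segment with the most positive value, 0.47 ± 0.16 (adjusted p = 0.158), with hyperplastic glands from 5.01 to 6.16 and normal glands from 4.79 to 5.28.

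A further 3 genes carry an older single symbol for a gamma segment and are therefore not among the 133. Tcrg-C3, a constant segment of the gamma chain, ran from 6.06 to 7.54 in normal glands and from 4.46 to 6.22 in tumors, a log2 difference of -1.39 ± 0.28 (SE, adjusted p = 0.000994), with a value of -0.79 ± 0.28 against hyperplastic glands (adjusted p = 0.0585). The latter was called in 6 of the alternative settings, with adjusted p from 0.00721 to 0.0428. Tcrg-V4 was lower in tumors than in normal glands by 0.66 log2 units (adjusted p = 0.0014, lost with centring on the negative controls at 0.0524) and was called lower in hyperplastic than in normal glands, by 0.58 log2 units (adjusted p = 0.0462). That last call was lost in 13 of the alternative settings, where adjusted p ran from 0.0521 to 0.355. Tcrg-V6 was not called in any comparison. A further 26 clusters carry several symbols, of which at least 1 is a T cell receptor segment, and are not named here: 21 were called lower against normal, 18 against hyperplastic glands and 0 in hyperplastic against normal glands.

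Genes of the T cell receptor complex and its signaling fell as well. Of 30 such genes, 22 were measured. All 22 fell in tumors against normal (median log2 change -1.38, 12.7% of all genes called lower) and against hyperplastic glands (median -1.29, 8.57% of all genes). None of these was called between hyperplastic and normal glands (median -0.02). Cd3e, Cd3g and Cd3d, invariant chains of the receptor complex, fell against normal, with log2 differences of -2.05, -2.29 and -1.34 (limma, adjusted p = 3.49e-05, 2.41e-06 and 0.000114). So did the co-receptors Cd4 and Cd8a, with -2.73 and -1.59 (adjusted p = 3.88e-06 and 4.6e-05). The study itself picked the Cd3 genes, Cd4 and Tcrb, the beta chain locus, as downregulated in these tissues. The direction of these genes and of the beta segments is thus no independent evidence. By flow cytometry the study also reported limited T cell infiltration of M/D-driven tumors, compared with normal glands.

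The enzymes that cut the segments are made in developing lymphocytes, while those that join them serve repair in all cells. Of 12 genes of this process 7 were measured, and in tumors against normal 1 fell and 3 rose, beside 12.7% of all genes called lower and 19.5% called higher. Rag2, 1 of the pair of enzymes that cut the segments, lay below the detection level in tumors and normal glands (4.07 and 4.11, adjusted p = 0.601). The end-joining genes Xrcc6, Xrcc5 and Lig4 rose by 0.50, 0.47 and 0.26 log2 units, and Prkdc, a kinase of the same repair, fell by 0.56. Among 11 measured genes linked to gamma-delta T cells, 4 were called lower in tumors against normal: Blk, Il23r, Il1r1 and Maf, none of which is limited to these cells. Il23r, part of the receptor for interleukin-23, was also called lower in hyperplastic than in normal glands (log2 -0.69 ± 0.14 SE, adjusted p = 0.0232), as were 0.655% of all genes. Its means in normal glands, hyperplastic glands and tumors (4.94, 4.25 and 4.15) all lay below the detection level.

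Markers of other lymphocytes fell too. All 9 measured B cell genes, among them Cd79a, Cd79b and Cd22, were lower in tumors than in normal glands (median log2 change -2.30) and hyperplastic glands (-2.20), and none was called between normal and hyperplastic glands. The study had also picked Cd22, and Cxcl13 of the lymph node stroma list below, as downregulated in these tissues. The direction of these genes is no independent evidence either. Averaged over the list, an array's level ran from 8.18 to 8.90 in normal glands, from 7.96 to 9.17 in hyperplastic glands and from 5.92 to 6.98 in tumors. Of 199 immunoglobulin variable segments, the B cell counterparts of the genes described here, 91% fell in tumors against normal, 75.9% against hyperplastic glands and 6.53% in hyperplastic against normal glands. Natural killer cell genes were called lower for 7 of 12 against normal (12.7% of all genes) and 8 of 12 against hyperplastic glands (8.57% of all genes). Of 8 measured genes of lymph node stroma, 3 fell and 1 rose in tumors against normal (12.7% and 19.5% of all genes). Those that fell were Cxcl13, Glycam1 and Chst4 (log2 -3.78, -3.32 and -0.55), and Ltbr rose by 0.28. Against hyperplastic glands 4 fell and 0 rose (8.57% and 11.9% of all genes). The list's level on an array ran from 7.73 to 8.20 in normal glands and from 6.32 to 7.85 in tumors. In tumors against normal, all 10 measured fat cell genes fell (median -2.99). There 2 of 10 genes of mammary epithelium rose, a share near the 19.5% of all genes called higher. The part of lymphoid tissue, fat and epithelium in the values of the segments was not tested.

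Within a group, normal 1 and hyperplastic 4 and 5 were the low arrays for the alpha and beta segments, as they were for the T cell receptor complex and B cell genes. The mean over the 18 alpha J segments ran from 6.21 (normal 1) to 6.85 (normal 2) in normal glands, from 5.95 (hyperplastic 5) to 6.94 (hyperplastic 2) in hyperplastic glands and from 5.33 to 5.55 in tumors. For the 21 beta V segments it ran from 5.39 (normal 1) to 5.93, from 5.38 (hyperplastic 4 and 5) to 6.16 (hyperplastic 6) and from 4.75 to 5.15 (tumor 5). The mean over the 85 alpha V segments ran from 5.65 to 6.00, from 5.55 to 6.14 and from 5.29 to 5.46. In all 3 classes every tumor lay below every other array, and hyperplastic glands spread more widely than normal glands. The level of the T cell receptor complex genes was lowest in normal 1 among normal glands (7.35, median 7.99) and in hyperplastic 4 among hyperplastic glands (7.26, median 7.84), and highest in hyperplastic 2 (8.41) and tumor 5 (6.76, tumor median 6.45). B cell genes were likewise lowest in normal 1 and hyperplastic 4 and highest in hyperplastic 2 and in tumor 5 (6.98). Leaving out any 1 array, among them normal 1 and tumor 5, gave between 77 and 96 segments called lower against normal and between 63 and 81 against hyperplastic glands.

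**Figure D5:**
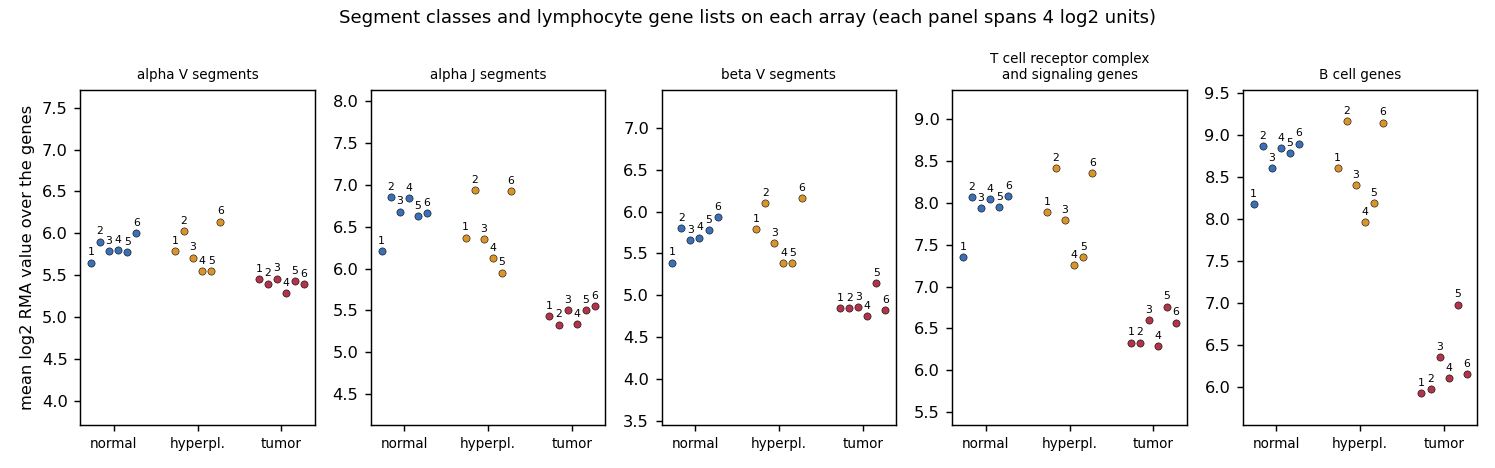
Mean log2 RMA value on each array (points, numbered by array) over the 85 alpha V, 18 alpha J and 21 beta V segments and over the 22 T cell receptor complex genes and 9 B cell genes, by group; each vertical axis spans 4 log2 units and the levels of different panels are not comparable. Tumors lie below all other arrays in every panel, with tumor 5 highest among tumors for the beta V segments and both gene lists, and normal 1 and hyperplastic 4 and 5 low in their groups.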

How the data were processed

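Values came from 18 Affymetrix mouse whole-transcript arrays. The deposited values are log2 intensities that the authors made with robust multi-array averaging (RMA: background correction, quantile normalization, median polish). Expression Console and Partek, with no versions, are named in the submitters' processing notes, and the study's methods name limma. A second deposited table was the same at all 58776 entries in common. The genome build is not given in the sources used here. RMA forces all arrays to a like distribution, so a difference in total RNA per cell was not measurable, and 6 arrays a group limit the precision. Array medians ran from 5.31 to 5.51.

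Clusters were named through the platform annotation, with 19869 symbols updated through the RefSeq gene table (GRCm38.p6). Of 29266 named clusters, 1957 with several symbols were set aside; the cluster with the highest mean stood for a gene, which left 27030 genes. Groups were taken from the sample titles. With limma 3.58.1 (R 4.3.3), 3 group means were estimated from all 18 arrays together, with two-sided moderated tests adjusted by Benjamini-Hochberg over 27030 genes and called at an adjusted p under 0.05. Standard errors and 95% confidence intervals are those of the fit. The code was tested on simulated data. Negative control probe sets were called at the largest raw p of a called gene in the same comparison. Lists were summarised by counts and medians.

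The members and lists were chosen with earlier results of these data known. The rule named up to 8 V or J segments with the largest changes among called segments whose groups did not overlap in each comparison, and the segment with the highest mean of each chain and class; up to 5 called segments that moved against most others would also have been named, and there were none. Other segments and families in the text were chosen after their values were seen. Alternatives were scaling, filter, variance model, block, threshold, table and left-out arrays. No sequence is shown, because the reference tables used here held no entry for a member.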

Additional observations from a re-analysis of the deposited data

Results flagged for a closer look

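In each group of 6 arrays, the highest or lowest array of the 15 segments named by rule was compared with its nearest neighbor. The gap was divided by the group's whole range and set against Dixon's 95% critical value for 6 arrays. This marked 8 of 45 groups, where about 2.2 would be marked by chance alone if the segments were independent, which they are not.

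Normal 1 was the array marked in 5 of these. It was low for Trbv20 (7.08, next 7.91, gap 0.818 of the range), Traj47 (5.74, next 6.99, 0.785), Traj38 (8.65, next 9.25, 0.693), Trav16d-dv11 (5.34, next 6.19, 0.682) and Traj35 (7.03, next 7.78, 0.630). The T cell receptor complex genes had their lowest normal level, 7.35, on the same array, and so had the B cell genes, at 8.18.

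Tumor 5 was high for Trbv20 (5.99, next 4.42, gap 0.652 of the range) and Trbv13-2 (5.74, next 4.58, 0.690). It also had the highest tumor level of the T cell receptor complex genes (6.76) and of the B cell genes (6.98). Hyperplastic 6 was high for Trdv5 (5.89, next 5.59, 0.626).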

How the results depend on the processing

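Against 87 segments called lower in tumors against normal and 74 against hyperplastic glands, centring on the negative controls gave 45 and 35, and the methods' threshold (a log2 change beyond 2, no adjustment) gave 7 and 7; the cause of the first was not tested, and the second asks for a larger change by its construction. Centring on the negative controls moved the median of all genes from 0.0439 to 0.2138 in tumor against normal, and centring on 8 reference genes moved it to -0.0523, with 102 and 72 segments called. Other settings gave 65 and 57 (only genes above the detection level, where 79 segments were tested), 91 and 62 (only the arrays compared), 89 and 73 (variance trend and robust prior), 82 and 71 (without tumors 3 and 6), 87 and 74 (mean of clusters, or the second table) and, added after seeing the data, 85 and 72 (identical segments counted once). With 1 array left out at a time the counts ran from 77 to 96 and from 63 to 81, and in hyperplastic against normal glands from 0 to 2, with 2 without hyperplastic 6. No segment was called higher in any setting.

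The replicate block gave 95 and 81, and 1 segment called lower in hyperplastic against normal glands, against 0 without it. The labels state no pairing of arrays by number. Correlations of same-numbered arrays ran from -0.187 to 0.106, from -0.056 to 0.405 and from -0.081 to 0.245 in the 3 comparisons. The same-numbered array was the best match for some arrays and not for most, so a pairing is neither shown nor excluded. A planned test between constant segments could not be run, since no constant segment is among the members.

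The segments and genes singled out by name gave 3525 values under alternative settings that kept their side of the threshold. A further 30 passed it newly and 45 no longer passed it. No call turned into a call in the opposite direction. The direction of values that were not called was not part of this count. Small falls among them can change sign with centring on the negative controls, which moved the median of all genes upward in tumor against normal. Signal over background limits the dim segments, 54 of which had a mean at or below the detection level.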
